A study of Mus musculus with 11 samples.

Results

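The cell cycle genes described here are 38 genes of DNA replication and cell division, read in tumour-free liver of 3 mouse genotypes. The list was given by symbol. For each gene the probe set (the array's set of short probes for 1 transcript) annotated to that symbol alone was used, and where there were several the one with the highest mean over the 11 arrays. Such a probe set was found for 37 of the 38 genes, out of 19938 genes measured in all; Ccnb1 was not analysed here. Of the 37, 14 were grouped as replication genes (entry into S phase, licensing of DNA and supply of nucleotides) and 23 as mitosis genes (G2, spindle, chromosome segregation and cytokinesis, with the proliferation marker Mki67). The study profiled liver RNA of male mice aged 14 months on Affymetrix arrays: 3 arrays of wild type C57BL/6 mice, which carry neither knockout, 4 of Mdr2-KO mice and 4 of Mdr2-KO/IL6-KO mice, which carry both. The labels name no treatment, and no promoter or Cre for either knockout. They give the strain of the wild-type mice only and do not say whether littermates were used. All values are log2 levels, on which 1 unit is a doubling, and a log2 change is the mean of the first group named minus that of the second.

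Cells enter the cycle when cyclin D and cyclin E kinases inactivate the retinoblastoma family and free E2F factors, which switch on the genes of DNA replication. The mitosis genes follow later, driven by MYBL2 and FOXM1, and their promoters are known for CCAAT boxes beside a cell cycle homology region. Adult hepatocytes are mostly quiescent and return to the cycle after injury. Mdr2, the product of Abcb4, moves phosphatidylcholine into bile, and its loss is known to injure the bile ducts and, with age, to lead to tumours of the liver. Interleukin 6 is known as a priming signal of liver regeneration. The comparisons ask how these genes stand in liver outside tumours when Mdr2 is lost, and when interleukin 6 is lost with it.

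Promoter sequences are shown for 6 members that the results turn on, since replication and mitosis genes differ in the motifs their promoters carry. The bases lie upstream of the transcript start in the RefSeq promoter table (GRCm38.p6) and are written 5′ to 3′ on the gene's strand. Capitals mark motif matches on either strand: CCAAT (reverse complement ATTGG), the cell cycle homology region letters TTTGAA or TTCGAA, and the E2F letters TTTCCCGC, TTTGGCGC, TTTCGCGC or TTTGCCGC. Mki67 (chr7:135716451-135716629, minus strand) and Cenpf (chr1:189688108-189688336, minus strand) are cut short where the gene record begins, 71 and 21 bases before the start used. The start used for Hells lies 728 bases inside its gene record, so only 30 bases around its E2F match are shown (chr19:38930917-38930946, plus strand). Ccnb2 (chr9:70421555-70421804), Cdc20 (chr4:118437344-118437593) and Mcm6 (chr1:128359706-128359955) are on the minus strand.
Mki67: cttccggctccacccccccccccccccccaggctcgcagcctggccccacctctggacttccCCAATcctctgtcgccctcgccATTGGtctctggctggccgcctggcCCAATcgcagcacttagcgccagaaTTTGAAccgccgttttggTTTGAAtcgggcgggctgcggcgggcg
Ccnb2: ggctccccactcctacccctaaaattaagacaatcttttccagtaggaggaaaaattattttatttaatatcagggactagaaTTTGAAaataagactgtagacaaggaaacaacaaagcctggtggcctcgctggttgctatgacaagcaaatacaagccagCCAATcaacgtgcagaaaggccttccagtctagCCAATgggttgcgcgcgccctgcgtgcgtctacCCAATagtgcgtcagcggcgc
Cdc20: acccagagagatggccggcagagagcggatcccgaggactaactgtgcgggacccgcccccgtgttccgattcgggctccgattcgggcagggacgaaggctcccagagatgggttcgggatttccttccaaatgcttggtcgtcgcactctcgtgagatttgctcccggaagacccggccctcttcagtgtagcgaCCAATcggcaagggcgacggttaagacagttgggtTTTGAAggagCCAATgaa
Cenpf: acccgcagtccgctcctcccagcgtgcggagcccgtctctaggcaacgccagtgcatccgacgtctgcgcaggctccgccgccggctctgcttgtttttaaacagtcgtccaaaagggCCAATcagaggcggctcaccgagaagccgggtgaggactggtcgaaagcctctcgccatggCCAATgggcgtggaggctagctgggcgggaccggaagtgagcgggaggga
Mcm6: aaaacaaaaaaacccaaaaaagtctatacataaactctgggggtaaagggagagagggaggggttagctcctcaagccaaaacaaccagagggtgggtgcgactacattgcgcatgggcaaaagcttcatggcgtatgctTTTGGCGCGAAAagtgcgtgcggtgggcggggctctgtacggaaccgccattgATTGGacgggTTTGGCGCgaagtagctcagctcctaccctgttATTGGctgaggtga
Hells: gaccaccgggtTTTCCCGCgaaagagaagc

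In the 250 bases upstream, CCAAT was found in 16 of 19 windows of the mitosis genes (84.2%) and in 7 of 12 windows of the replication genes (58.3%), against 33.8% of all 32851 windows in the table. The cell cycle homology region letters were in 9 of the mitosis windows (47.4%) and 2 of the replication windows (16.7%), against 17.1% of all windows. The E2F letters were in 4 replication windows (33.3%) and 1 mitosis window (5.26%), against 1.86% of all windows. Windows existed for 29 of the 37 measured members. In Mki67 3 CCAAT matches lie upstream of a pair of TTTGAA matches, in Ccnb2 and Cdc20 CCAAT stands with TTTGAA, and in the bases shown of Cenpf CCAAT stands without it. Mcm6 holds 3 E2F matches, of which the pair farthest from the start overlap. These are matches of letters and show no binding.

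Most members were read in the lower part of the array's scale. Their means over the 11 arrays ran from 3.54 (Bub1) to 8.75 (Ccnd1), with a median of 5.42, and 22 of the 37 lay below the median gene (5.57). As a guide to the low end, 95% of 1027 olfactory receptor genes, which liver is not known to use, had a mean under 4.58. By this guide 29 members stood above the low end, and Ccne2, Bub1, Foxm1, Cenpf, Kif11, Nusap1, Ttk and Melk did not. Within groups the median SD of the members was 0.24, against 0.15 for all genes. In whole tissue fewer cycling cells and less of these RNAs per cell cannot be told apart.

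Abcb4, the gene of Mdr2, averaged 9.83 ± 0.105 (SD, n = 3) on the wild-type arrays, 7.74 ± 0.194 (SD, n = 4) on the Mdr2-KO arrays and 8.09 ± 0.204 (SD, n = 4) on the Mdr2-KO/IL6-KO arrays. Il6 lay between 1.61 and 2.09 everywhere, so low that its level is no check of the IL6 genotype. Markers of hepatocytes (10 of 12 measured) averaged 12.0 to 12.2 on every array, but the average hides single markers. The Mdr2-KO/IL6-KO arrays lay wholly below the wild-type arrays for 5 of the 10 and wholly above for 2. Of all genes 6.44% and 9.85% did so. The lowest adjusted p of these markers in that comparison was 0.117 (limma). Over all genes Mdr2-KO replicate 2 held the highest value of the 11 arrays for 18.8% and Mdr2-KO replicate 3 the lowest for 18.4%, more than any other array. Each array's title holds an identifier of its own, but the labels do not say that these stand for separate mice. The p-values here therefore measure the spread between these samples, and whether it is all between mice is not stated.

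**Figure D1:**
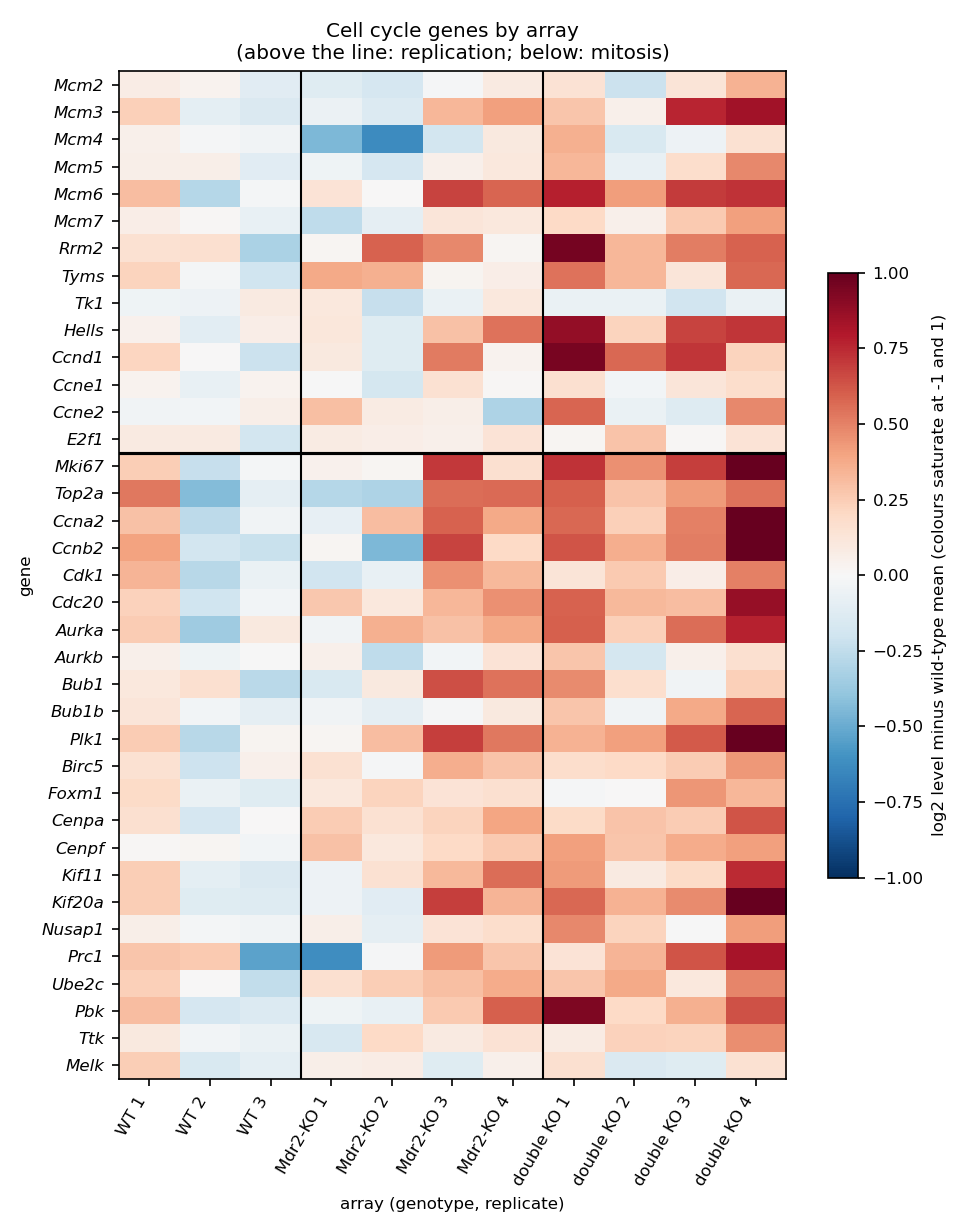
Level of each measured cell cycle gene (rows) on each array (columns), as the log2 level minus the mean of the 3 wild-type arrays; red is higher and blue is lower, and double KO is Mdr2-KO/IL6-KO. Red is most frequent in double KO 4, the highest of all 11 arrays for 21 of the 37 genes, and double KO 1, the highest for 11.

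The clearest difference was between Mdr2-KO/IL6-KO and wild type. Of the 37 members 36 had a higher mean in Mdr2-KO/IL6-KO, where 49.8% of all genes did. The median log2 change was 0.36 over the 23 mitosis genes and 0.23 over the 14 replication genes, against 0.00 over all genes, or 1.29-fold and 1.17-fold. Few genes passed the test singly: Mki67, Cenpf and Hells rose, 3 of 37, and none fell (limma, adjusted p under 0.05 over all 19938 genes). Of all genes 4.19% were called, 2.91% higher and 1.28% lower. At an unadjusted p under 0.05, 21 members were higher and none was lower, where 15.5% of all genes passed and 9.4% did so upward. The arrays of the groups did not overlap for 11 members in the upward direction, as for 9.85% of all genes, and for 1 member, Tk1, in the downward direction, as for 6.44%. When each array was centred on its median, 35 members were higher; under quantile normalization or cyclic loess 36 were.

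Mki67, whose protein is the common stain for cycling cells, read 5.56, 5.08 and 5.29 on the wild-type arrays. The Mdr2-KO arrays read 5.35, 5.33, 6.02 and 5.47, and the Mdr2-KO/IL6-KO arrays 6.04, 5.77, 6.00 and 6.34. Every Mdr2-KO/IL6-KO array lay above every wild-type array, while Mdr2-KO replicate 3 lay among the Mdr2-KO/IL6-KO values and the other Mdr2-KO arrays among the wild-type values. Against wild type Mki67 rose 1.65-fold with both genes lost (log2 change 0.73 ± 0.18 SE, adjusted p = 0.0341).

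Cenpf, a kinetochore protein of G2 and mitosis, read 4.06, 4.06 and 4.02 on the wild-type arrays. The Mdr2-KO arrays read 4.34, 4.15, 4.25 and 4.31, and the Mdr2-KO/IL6-KO arrays 4.46, 4.33, 4.42 and 4.45. All knockout arrays lay above all 3 wild-type arrays, whose SD was 0.03. With both genes lost its rise over wild type was 1.29-fold (log2 change 0.37 ± 0.08 SE, adjusted p = 0.0189). It is one of the 8 members at the low end of the scale.

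Hells, a chromatin remodeller needed for DNA methylation, read 4.54, 4.40 and 4.57 on the wild-type arrays. The Mdr2-KO arrays read 4.62, 4.38, 4.80 and 5.04, and the Mdr2-KO/IL6-KO arrays 5.38, 4.72, 5.18 and 5.22. The Mdr2-KO/IL6-KO arrays lay above wild type without overlap, and the Mdr2-KO arrays spread across both ranges. In Mdr2-KO/IL6-KO Hells rose 1.54-fold over wild type (log2 change 0.62 ± 0.16 SE, adjusted p = 0.049), just inside the threshold. It missed the threshold under quantile normalization, median centring and cyclic loess, each of which called 2 members, Mki67 and Cenpf.

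The 3 calls also depended on which arrays were included. Calls over all genes moved too, from 836 to between 464 and 989 when 1 array was left out. A lost call therefore does not show that 1 array alone made it. Mki67 missed the threshold without wild-type replicate 2 (adjusted p = 0.149) or 3 (0.109) and without Mdr2-KO/IL6-KO replicate 1 (0.0814), 3 (0.0734) or 4 (0.0862). Cenpf missed it without wild-type replicate 1 (adjusted p = 0.0634), 2 (0.0569) or 3 (0.0817) and without Mdr2-KO/IL6-KO replicate 1 (0.0562). Hells stayed inside it only without Mdr2-KO replicate 2 (adjusted p = 0.0273) or 4 (0.0371) or Mdr2-KO/IL6-KO replicate 2 (0.0156); without any of the other 8 arrays its adjusted p ran from 0.0569 (Mdr2-KO replicate 3 left out) to 0.166 (wild-type replicate 2 left out). With 1 array left out, the number of members called was 0 without wild-type replicate 2 or 3 or Mdr2-KO/IL6-KO replicate 1, 1 without Mdr2-KO/IL6-KO replicate 3, and 2 to 4 otherwise. In these runs 34 to 36 of the 37 members were higher. The median over all members, 0.34, was lowest without Mdr2-KO/IL6-KO replicate 4, at 0.24.

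**Figure D2:**
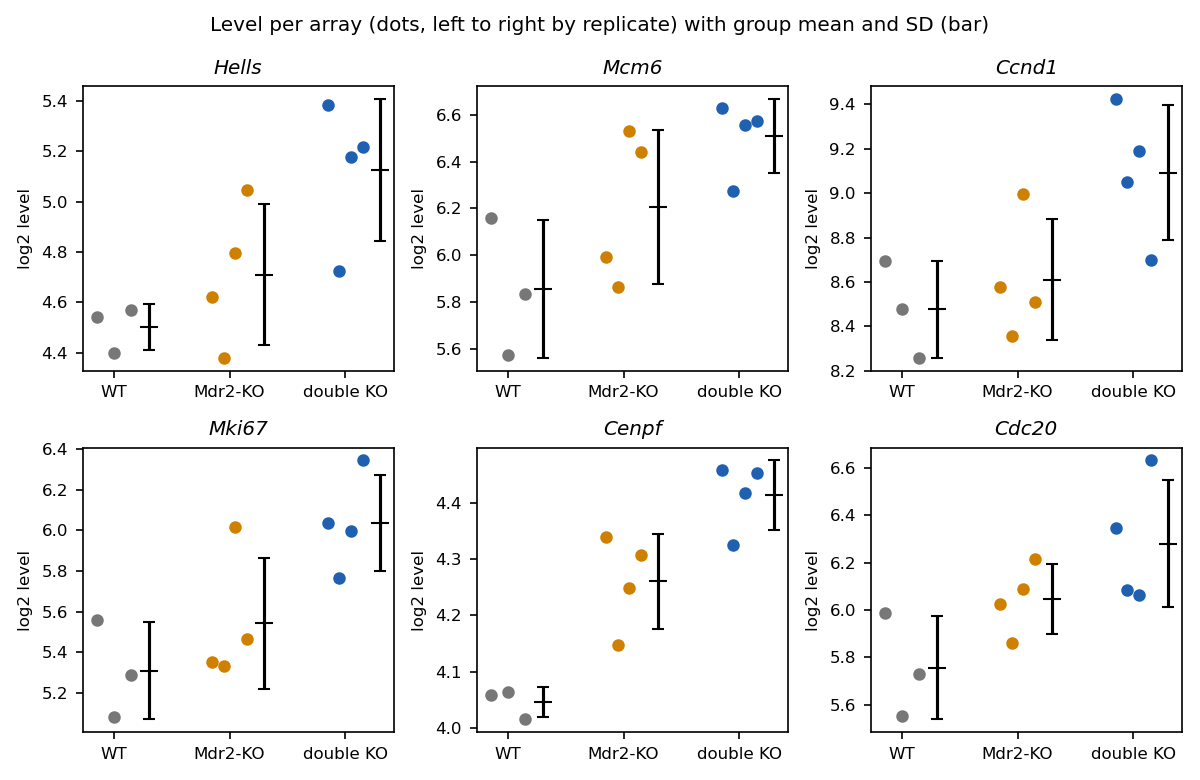
Log2 level of 6 members per array (dots) by genotype, with the group mean and SD as a bar; double KO is Mdr2-KO/IL6-KO, and the vertical axes do not start at 0. Double KO arrays lie above all wild-type arrays in each panel, and Mdr2-KO arrays overlap with one group or both.

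Mcm2 to Mcm7 code for the subunits of the replicative helicase, which is loaded onto DNA in G1. Mcm6 read 6.16, 5.57 and 5.84 on the wild-type arrays, 5.99, 5.86, 6.53 and 6.44 on the Mdr2-KO arrays, and 6.63, 6.28, 6.56 and 6.58 on the Mdr2-KO/IL6-KO arrays. The Mdr2-KO/IL6-KO arrays lay above wild type, and Mdr2-KO replicates 3 and 4 lay among them. Its log2 change against wild type was 0.65 ± 0.17 SE (adjusted p = 0.053), which missed the threshold. Mcm3 had a log2 change of 0.48 (adjusted p = 0.232), Mcm5 0.23 (adjusted p = 0.421) and Mcm7 0.23 (adjusted p = 0.352). Mcm2 and Mcm4 had the smallest differences of the helicase, 0.10 (95% CI -0.16 to 0.36) and 0.08 (95% CI -0.26 to 0.42).

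Of the genes that supply nucleotides, Rrm2, the regulated subunit of ribonucleotide reductase, read 6.20, 6.21 and 5.73 on the wild-type arrays, 6.07, 6.64, 6.53 and 6.07 on the Mdr2-KO arrays, and 7.01, 6.38, 6.56 and 6.64 on the Mdr2-KO/IL6-KO arrays. Wild type and Mdr2-KO/IL6-KO did not overlap, and Mdr2-KO overlapped with both. The log2 change of Rrm2 against wild type was 0.60 (adjusted p = 0.09), and that of Tyms, thymidylate synthase, 0.39 (adjusted p = 0.162). Tk1, thymidine kinase of the salvage pathway, was the only member with a lower mean in Mdr2-KO/IL6-KO, 6.43 ± 0.0622 (SD, n = 4) against 6.53 ± 0.0794 (SD, n = 3), a log2 change of -0.10 (95% CI -0.31 to 0.11, adjusted p = 0.731).

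Among the G1 genes Ccnd1, cyclin D1, the brightest member, read 8.69, 8.48 and 8.26 on the wild-type arrays, 8.58, 8.36, 8.996 and 8.51 on the Mdr2-KO arrays, and 9.42, 9.05, 9.19 and 8.70 on the Mdr2-KO/IL6-KO arrays. The lowest Mdr2-KO/IL6-KO array, replicate 4, barely cleared the highest wild-type array, although it was the highest of all 11 arrays for 21 of the 37 members. Ccnd1 had a 1.53-fold higher mean in Mdr2-KO/IL6-KO than in wild type and missed the threshold (log2 change 0.62 ± 0.18 SE, adjusted p = 0.0743). Ccne1 and Ccne2, the E cyclins that drive entry into S phase, had log2 changes of 0.11 (95% CI -0.09 to 0.31) and 0.21 (95% CI -0.17 to 0.60). E2f1, an activator of the replication genes, had 0.12 (95% CI -0.09 to 0.33).

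All 23 mitosis genes had a higher mean in Mdr2-KO/IL6-KO than in wild type, by 0.01 (Melk) to 0.73 (Mki67). Cdc20, which activates the anaphase-promoting complex, read 5.99, 5.55 and 5.73 on the wild-type arrays, 6.02, 5.86, 6.09 and 6.22 on the Mdr2-KO arrays and 6.34, 6.08, 6.06 and 6.63 on the Mdr2-KO/IL6-KO arrays. Wild type and Mdr2-KO/IL6-KO did not overlap, and the log2 change was 0.52 ± 0.15 SE (adjusted p = 0.0661). Among genes named after their values were seen, Kif20a, a kinesin of cytokinesis, had 0.65 (adjusted p = 0.13), Plk1, the polo kinase, 0.64 (adjusted p = 0.113), Ccna2, the cyclin of S and G2, 0.59 (adjusted p = 0.125) and Aurka, the kinase of the spindle poles, 0.54 (adjusted p = 0.0804). Ccnb2, a B-type cyclin, had 0.63 (adjusted p = 0.191). Top2a, the topoisomerase that untangles sister chromatids, had 0.46 (adjusted p = 0.413), with wild-type arrays from 4.67 to 5.64. Cdk1, the kinase that triggers mitosis, had 0.24 (95% CI -0.14 to 0.62, adjusted p = 0.613).

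The chromosomal passenger genes Birc5, survivin, and Aurkb, its kinase partner, had log2 changes of 0.27 (95% CI 0.02 to 0.51, adjusted p = 0.277) and 0.08 (95% CI -0.17 to 0.33, adjusted p = 0.85). The arrays of Birc5 did not overlap, and those of Aurkb did. Foxm1, the transcription factor of the G2 genes, had 0.19 (95% CI -0.07 to 0.45) at the low end of the scale, and Melk, a kinase of cycling cells, 0.01 (95% CI -0.24 to 0.27). The interval of Foxm1 holds both 0 and the median of the mitosis genes, 0.36.

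**Figure D3:**
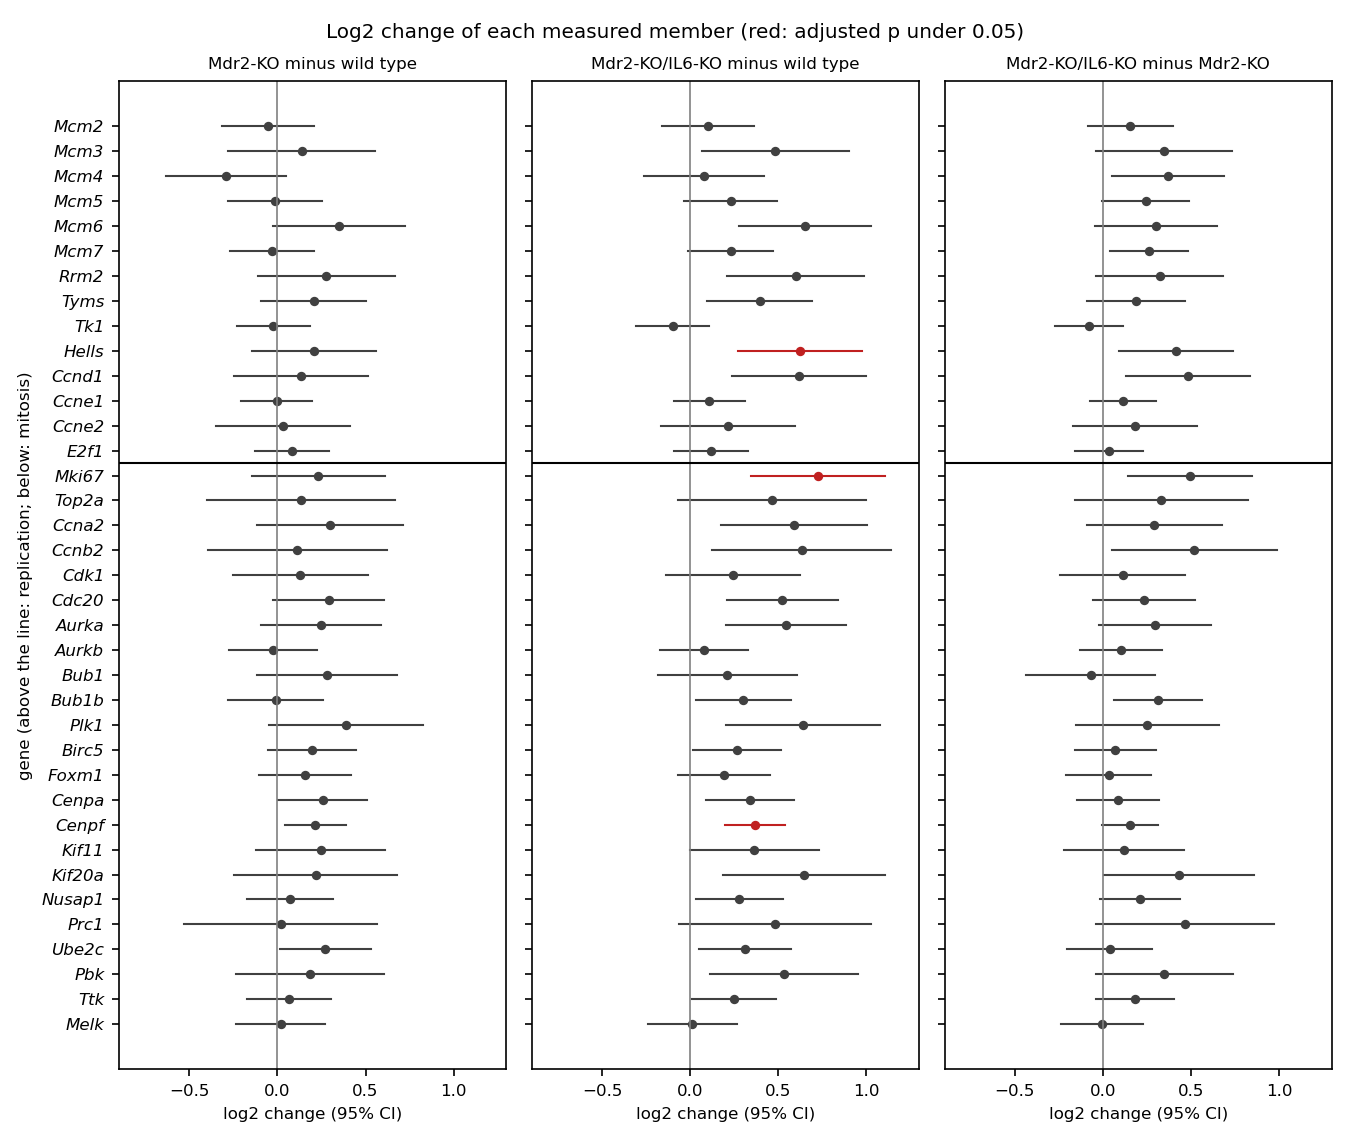
Log2 change of each measured member with its 95% confidence interval from the limma fit, in 3 comparisons; red marks an adjusted p under 0.05, and the horizontal line parts replication genes from mitosis genes. Mki67, Cenpf and Hells are red in the comparison of double KO (Mdr2-KO/IL6-KO) with wild type, where 36 of 37 points lie right of 0, and no member is red in the others.

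Mdr2-KO livers showed no called difference from wild type in these genes. None of the 37 members was called, where 1.26% of all genes were, 0.948% higher and 0.316% lower; an unmoderated linear model called none either. At an unadjusted p under 0.05 there were 3 members, all higher, where 9.79% of all genes passed and 5.69% did so upward: Cenpf (log2 change 0.21, adjusted p = 0.33), Cenpa, the centromeric histone (0.26, adjusted p = 0.501), and Ube2c, the ubiquitin-conjugating enzyme of the anaphase-promoting complex (0.27, adjusted p = 0.478). Cenpf was also the only member whose arrays did not overlap, all higher, where 5.49% of all genes were so upward and 3.64% downward. The mean was higher in Mdr2-KO for 21 of 23 mitosis genes (median log2 change 0.20) and for 8 of 14 replication genes (median 0.06), as it was for 48.3% of all genes (median -0.01).

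Of the replication genes Mcm6, Rrm2 and Tyms had the lowest p upward, with log2 changes of 0.35 (adjusted p = 0.549), 0.28 (adjusted p = 0.713) and 0.21 (adjusted p = 0.733). Mcm4 had the lowest change of all members, -0.29 (95% CI -0.63 to 0.05, adjusted p = 0.616): its wild-type arrays read 5.77, 5.70 and 5.68 and its Mdr2-KO arrays 5.27, 5.09, 5.53 and 5.82. Only Mdr2-KO replicate 4 lay above wild type, and the other Mdr2-KO arrays lay below it. Mcm2 and Mcm7 had -0.05 and -0.03, so that within the helicase Mcm6 and Mcm4 differed in sign, a difference that was not tested. The mitosis genes with a lower mean were Aurkb (-0.03) and Bub1b, a kinase of the spindle checkpoint (-0.01).

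The medians moved with single arrays. That of the mitosis genes, 0.20, was 0.33 without wild-type replicate 1 and 0.12 without wild-type replicate 2. That of the replication genes, 0.06, was 0.02 without wild-type replicate 3 or without Mdr2-KO replicate 3. Over all members the median of 0.14 was 0.07 without Mdr2-KO replicate 3, 0.26 without wild-type replicate 1 and 0.21 without Mdr2-KO replicate 2. Without both Mdr2-KO replicates 2 and 3 it was 0.12, with 31 of 37 members higher.

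The Mdr2-KO arrays differed among themselves. The mean over the mitosis genes was 4.83, 4.88, 5.19 and 5.16 on these 4 arrays, while the wild-type arrays averaged 5.06, 4.72 and 4.75 and the Mdr2-KO/IL6-KO arrays 5.24, 5.06, 5.16 and 5.48. Within Mdr2-KO, replicates 4 and 3 held the highest value for 17 and 13 of the 37 members, and replicates 2 and 1 the lowest for 21 and 11. Wild-type replicate 1 was the highest of its group for 29 members, where 32.2% of all genes were highest on that array. Its mitosis mean was just above that of Mdr2-KO/IL6-KO replicate 2, so these groups overlapped. The replication means just missed overlap, at 5.72 to 5.91 on the wild-type arrays and 5.93 to 6.24 on the Mdr2-KO/IL6-KO arrays. Those of Mdr2-KO ran from 5.75 to 5.99.

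**Figure D4:**
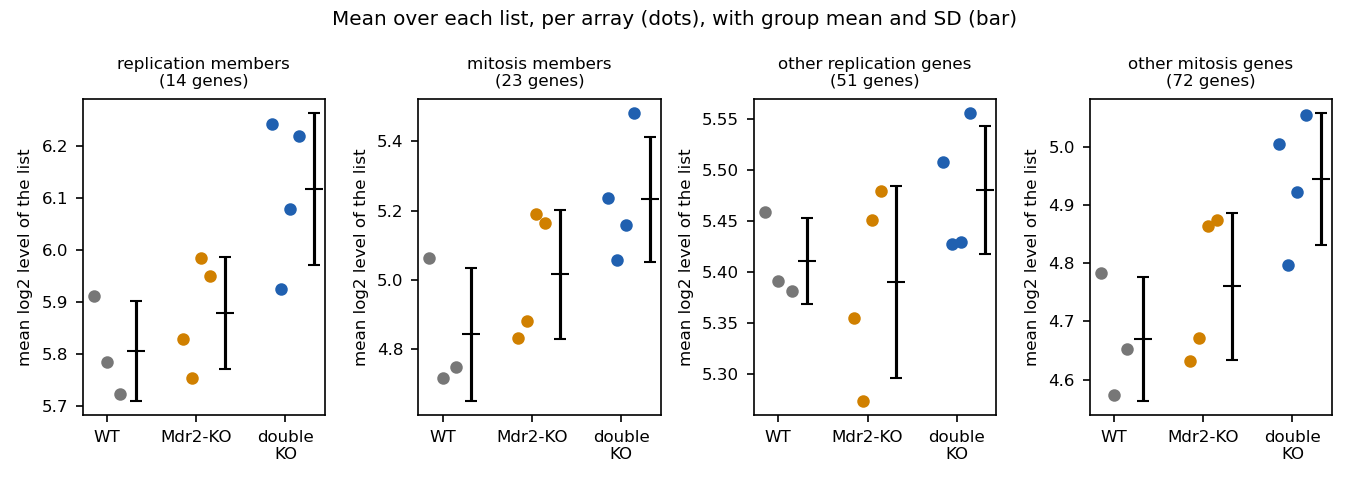
Mean log2 level over each list of genes on every array (dots), with the group mean and SD as a bar; double KO is Mdr2-KO/IL6-KO and the vertical axes do not start at 0. In the mitosis genes 1 wild-type array, at 5.06, lies at the level of the lowest double KO array, and the Mdr2-KO arrays run from 4.83 to 5.19.

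Between the knockout groups no member was called in either direction (limma, adjusted p under 0.05), where 1 gene of all, or 0.00502%, was; the unmoderated model called none. Of the 37 members 34 had a higher mean in Mdr2-KO/IL6-KO than in Mdr2-KO, where 53.9% of all genes did. Members read on the same arrays are not repeats of a comparison, here or against wild type, so such a count is no test. The array means over all members overlapped, 5.21 to 5.49 in Mdr2-KO and 5.39 to 5.76 in Mdr2-KO/IL6-KO. The median log2 change was 0.25 over the replication genes and 0.21 over the mitosis genes, against 0.01 over all genes. At an unadjusted p under 0.05 there were 8 members, all higher, 4 of each kind, where 4.82% of all genes passed and 2.78% did so upward. No member had arrays without overlap, where 1.6% of all genes were so upward and 0.908% downward.

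Mki67 had the lowest p of the mitosis genes here, with a log2 change of 0.49 (95% CI 0.14 to 0.84, adjusted p = 0.981). Bub1b had 0.31 (95% CI 0.06 to 0.56) and Ccnb2 0.52 (95% CI 0.05 to 0.99), both with an adjusted p = 0.9995. Among the replication genes Ccnd1 had 0.48 (95% CI 0.13 to 0.83), Hells 0.42 (95% CI 0.09 to 0.74) and Mcm7 0.26 (95% CI 0.04 to 0.48), each with an adjusted p = 0.9995. The intervals are those of single genes and are not adjusted for the number of genes. Bub1, the partner kinase of the spindle checkpoint, Melk and Tk1 had a lower mean, with log2 changes of -0.07, -0.01 and -0.08.

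The medians over all members and over the mitosis genes moved most when Mdr2-KO/IL6-KO replicate 4 was left out. Without it the median over all members was 0.14 in place of 0.23, that of the mitosis genes 0.12 in place of 0.21, and 30 of 37 members were higher. The median of the replication genes, 0.25, was 0.18 without that array and 0.33 without Mdr2-KO/IL6-KO replicate 2. Replicate 4 held the highest value of all 11 arrays for 21 members, 15 of them mitosis genes, and replicate 1 for 11, where 7.69% and 8.52% of all genes were highest on these arrays. Replicate 2 was the lowest of its group for 21 members. Both comparisons of Mdr2-KO/IL6-KO share its 4 arrays, and both comparisons with wild type share those 3 arrays.

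**Figure D5:**
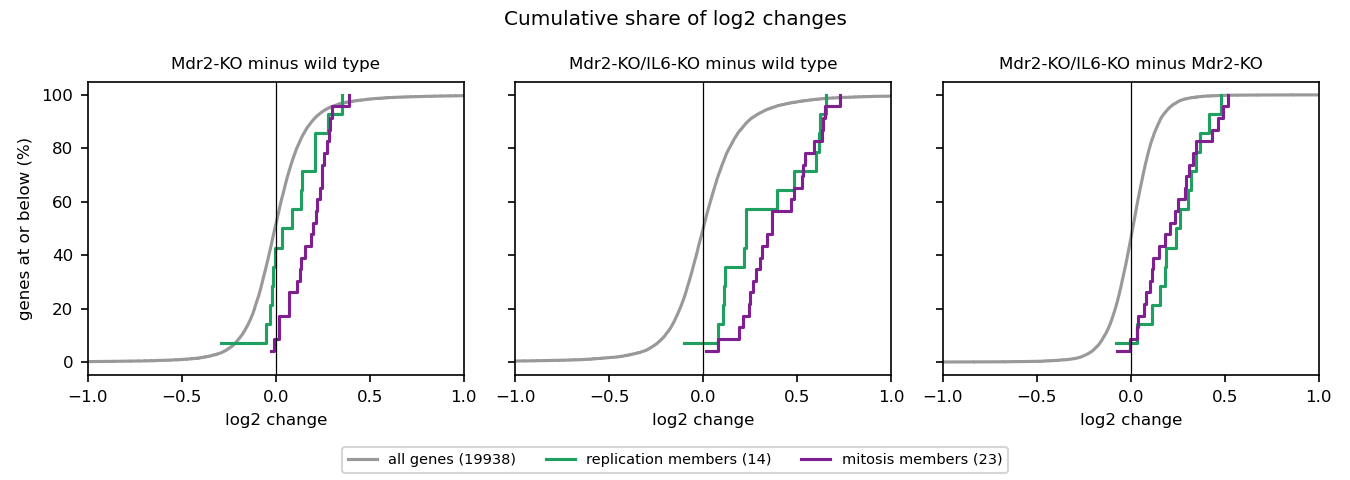
Cumulative share of genes (vertical, %) at or below each log2 change (horizontal, drawn from -1 to 1) for all genes, the replication genes and the mitosis genes, in 3 comparisons. Against wild type the double KO (Mdr2-KO/IL6-KO) curves of both kinds lie right of that of all genes, with medians of 0.23 and 0.36 against 0.00.

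Lists of other genes of the same pathways, which hold no member, were read the same way. Between wild type and Mdr2-KO/IL6-KO the array means of the other mitosis genes did not overlap, 4.57 to 4.78 against 4.80 to 5.06. Those of the other replication genes overlapped, 5.38 to 5.46 against 5.43 to 5.56, the reverse of the members. Of 72 other mitosis genes 63 had a higher mean in Mdr2-KO/IL6-KO than in wild type (median log2 change 0.28), 4 rose and none fell, where 2.91% of all genes were called higher. Spc24, a subunit of the NDC80 complex at the kinetochore, rose by a log2 change of 0.67 (adjusted p = 0.0074), Cdca3, which promotes entry into mitosis, by 0.59 (adjusted p = 0.00857), and Cdc25c, the phosphatase that activates CDK1, by 0.51 (adjusted p = 0.00922). The other call, named after its value was seen, was Kif2c, a kinesin that takes microtubules apart (0.69, adjusted p = 0.0119). Of these 4 genes Cdc25c alone, with a mean over all arrays of 3.85, stood at the low end of the scale. In Mdr2-KO 55 of the 72 were higher than in wild type (median 0.10), and Spc24 alone rose (0.56, adjusted p = 0.0459), where 0.948% of all genes were called higher.

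Of 51 other replication genes 35 had a higher mean in Mdr2-KO/IL6-KO than in wild type, with a median log2 change of 0.08 and no call. At an unadjusted p under 0.05 there were 7 higher and 4 lower, not far from the shares of all genes (15.5% in either direction, 9.4% higher). Of these 51 genes Cdt1, the licensing factor, had the lowest p (0.37, adjusted p = 0.0729). In Mdr2-KO 23 of the 51 were higher, with a median of -0.01 and no call; 3 passed unadjusted, all lower, where 9.79% of all genes passed in either direction, and Mcm10, a replisome scaffold, had the lowest p (-0.41, adjusted p = 0.26). Between the knockout groups no gene of these lists was called, while 61 of 72 and 39 of 51 had a higher mean in Mdr2-KO/IL6-KO. The lowest p were those of Cdc25c (0.35, adjusted p = 0.657) and Cdt1 (0.26, adjusted p = 0.9995).

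Regulators of the cycle were read in a pair of further lists. Each had a single call in Mdr2-KO/IL6-KO against wild type, where 2.91% of all genes were called higher. So few calls set neither list apart from all genes. At an unadjusted p under 0.05 in that limma comparison, 6 of 36 control genes were higher and 1 was lower. Of 20 inhibitors 5 were higher and none was lower. Of all genes 15.5% passed, 9.4% upward. Of 36 control genes 1 rose in Mdr2-KO/IL6-KO against wild type, Mybl1, a MYB factor related to MYBL2 (1.75-fold, adjusted p = 0.00606), with a list median of 0.08. Mybl1, with a mean over all arrays of 4.28, stood at the low end of the scale. In Mdr2-KO none of the 36 was called (median 0.04), and Mycn had the lowest p (-0.34, adjusted p = 0.248). Of 20 inhibitors 1 rose in Mdr2-KO/IL6-KO, Ccng2, a cyclin that restrains the cycle (1.44-fold, adjusted p = 0.0222), with a median of 0.07. Cdkn2c, an inhibitor of the cyclin D kinases, had the lowest p of that list in Mdr2-KO (0.76, adjusted p = 0.255), where none was called, and 0.92 in Mdr2-KO/IL6-KO (adjusted p = 0.0644). Between the knockout groups no gene of either list was called; the lowest p were those of Mybl1 (0.38) and Ccng2 (0.30), both with an adjusted p = 0.9995.

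Markers of other cell types also differed from wild type, but not all in the pattern of the cell cycle genes. With Mdr2 lost and with both genes lost, bile duct cell markers averaged 0.83 and 0.85 above wild type. Liver tumour markers averaged 0.53 and 0.52 above it, stellate cell markers 0.43 and 0.52, and endothelial cell markers 0.20 and 0.33. For the cell cycle members these differences were 0.14 and 0.36. Of 9 bile duct cell markers 6 rose in each knockout group against wild type, and their mean ran from 5.18 to 5.29 on the wild-type arrays, 5.94 to 6.14 on the Mdr2-KO arrays and 5.95 to 6.27 on the Mdr2-KO/IL6-KO arrays. Of 12 stellate cell markers 5 rose with Mdr2 lost and 6 with both genes lost, with means of 6.73 to 6.86, 7.09 to 7.28 and 7.17 to 7.41 in the same order. Of 12 endothelial cell markers 1 and 3 rose, with means of 6.76 to 7.04, 7.06 to 7.22 and 7.16 to 7.34. Of 11 liver tumour markers 4 rose in each knockout group, with means of 5.09 to 5.17, 5.60 to 5.77 and 5.56 to 5.71. The tumour list did not rise as a whole. Its median log2 changes were 0.33 with Mdr2 lost and 0.11 with both genes lost, and its largest 2.10 and 2.18. In each knockout group 3 of the 11 tumour markers had a lower mean than in wild type. Cd34 is in both the endothelial and the tumour list. It had the largest log2 change of the endothelial markers in Mdr2-KO against wild type, 1.28. In that comparison 10 of the 12 endothelial markers had a higher mean and 2 a lower mean. None of these markers was called between the knockout groups. Against wild type, 0.948% of all genes were called higher with Mdr2 lost and 2.91% with both genes lost.

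Of 10 T and NK cell markers 3 fell in Mdr2-KO/IL6-KO against wild type, Cd8a, Gzma and Gzmb, and none was called in Mdr2-KO. Of all genes 1.28% were called lower in Mdr2-KO/IL6-KO. Gzma and Gzmb, with means over all arrays of 3.59 and 4.34, stood at the low end of the scale. The means over the T and NK cell markers ran from 4.84 to 5.54, 4.65 to 5.03 and 4.54 to 4.78 in the order wild type, Mdr2-KO and Mdr2-KO/IL6-KO. Wild-type replicate 1, with the highest mitosis mean of its group, had the highest T and NK cell mean, 5.54. That was not particular to T and NK cells. The same array also had the highest hepatocyte (12.14), neutrophil (4.44), stellate cell (6.86) and endothelial cell (7.04) means of its group, but not those of the other marker lists. No B and plasma cell, macrophage and Kupffer cell, neutrophil or erythroid marker was called. In the same order B and plasma cell markers averaged 4.88 to 4.94, 4.71 to 4.89 and 4.59 to 4.84, and macrophage and Kupffer cell markers 7.17 to 8.32, 7.44 to 7.99 and 7.54 to 7.86. Neutrophil markers averaged 4.22 to 4.44, 4.15 to 4.38 and 4.03 to 4.22, and 6 erythroid markers 5.38 to 5.43, 5.24 to 5.52 and 5.26 to 5.37. The part of these cell types in the cell cycle values was not tested.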

How the data were processed

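The authors deposited 1 table of log2 levels for 35557 probe sets on 11 arrays. The submitters' processing notes name RMA and Partek, without versions; other settings are not given in the sources used here. RNA from snap-frozen liver was turned into biotinylated cRNA, per the labels' protocols. The platform annotation gave 21789 probe sets 1 symbol, 1621 several and 12147 none, with symbols updated through RefSeq (GRCm38.p6). The brightest probe set per gene left 19938 genes, of which 999 had several.

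A single limma 3.58.1 model (R 4.3.3) with a mean per group gave 3 contrasts by its moderated test (eBayes), with two-sided p-values adjusted by Benjamini-Hochberg over all 19938 genes; called means an adjusted p under 0.05. The script was tested on simulated data. The labels give no batch or pairing, and the number of arrays limits the precision. Means over a list carry no test. The members and lists were chosen with earlier results of these data known. Named genes were members called, the 3 of lowest p per direction, kind and comparison, and a set of well-known members; from other lists, up to 3 called genes per direction or else the one of lowest p; and Abcb4 and Il6.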

Additional observations from a re-analysis of the deposited data

Results flagged for a closer look

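In groups of 4 arrays, 78 sets of values (37 members and both list means in each knockout group) were checked for an array far from the others, and 2 were found; chance gives about 1 in 20. Melk read 4.37 in Mdr2-KO replicate 3, while the other 3 arrays of that group lay between 4.55 and 4.57. Tk1 read 6.34 in Mdr2-KO/IL6-KO replicate 3, while the other 3 arrays shared a single value of 6.46. Neither gene was called in any comparison.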

How the results depend on the processing

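In Mdr2-KO/IL6-KO against wild type 3 members were called. That count was 5 among genes brighter than the median gene; this filter on the mean over all arrays kept 15 members, left out Cenpf and Hells, and kept Mki67 only through its level in Mdr2-KO/IL6-KO, so the 5 are no stronger support than the 3. It was 1 in the unmoderated model, 7 with array weights, 0 when tested against a fold of at least 1.2 and 0 at an adjusted p under 0.01. With settings chosen after seeing the data it was 6 with the array median as a covariate and 6 without Mdr2-KO replicates 2 and 3. Leaving out 1 array gave 0 to 4. No member was called in the other comparisons under any of the 25 settings. Of 1971 values of named members under alternatives 28 lost and 21 gained a call, none of them with a changed sign, and 64 that were never called changed sign. Under the 3 other normalizations the difference of the list means from wild type was 0.37 to 0.39 for the mitosis genes and 0.28 to 0.30 for the replication genes (0.39 and 0.31 as deposited). Calls over all genes moved more. Against wild type, Mdr2-KO had 252, which became 43 (unmoderated), 410 (array weights), 138 (only the 2 groups compared), 55 (fold of at least 1.2) and 94 (adjusted p under 0.01), with 148 to 323 when 1 array was left out. Mdr2-KO/IL6-KO had 836, which became 496, 1341, 178 and 342 (unmoderated, array weights, fold, adjusted p under 0.01), with 464 to 989 when 1 array was left out. Between the knockout groups the 1 gene became 4 in either brightness filter and with cyclic loess, 2 with median centring, the trended model, the covariate or without Mdr2-KO replicates 2 and 3, 6 with array weights and 0 in the unmoderated model, with 1 to 5 when 1 array was left out. The cause was not tested. No paired analysis was possible because the labels give no replicate numbers shared between groups. With 3 or 4 arrays a group, small differences in dim genes are not measured well.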

Other observations

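A pair of members had more than 1 probe set of their own. The second Tk1 probe set averaged 6.01 ± 0.194 (SD, n = 3) on the wild-type arrays, 6.11 ± 0.325 (SD, n = 4) on the Mdr2-KO arrays and 5.91 ± 0.0722 (SD, n = 4) on the Mdr2-KO/IL6-KO arrays, a log2 change of -0.10 from wild type to Mdr2-KO/IL6-KO, the same to 2 decimals as that of the probe set used. On the second Tk1 probe set the wild-type arrays (5.84 to 6.23) and the Mdr2-KO/IL6-KO arrays (5.81 to 5.975) overlapped, unlike on the one used. The second Top2a probe set lay near the bottom of the scale, at 1.61 ± 0.101 (SD, n = 3), 1.75 ± 0.154 (SD, n = 4) and 1.86 ± 0.319 (SD, n = 4) in the order wild type, Mdr2-KO and Mdr2-KO/IL6-KO. Another 2 probe sets annotated to Top2a together with Hibadh had log2 changes of 0.34 and 0.26 from wild type to Mdr2-KO/IL6-KO, against 0.46 for the one used.

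Some deposited values were identical across arrays. Tk1 read 6.46495 in 4 arrays, Mdr2-KO replicate 3 and Mdr2-KO/IL6-KO replicates 1, 2 and 4, and Aurkb read 5.44806 in 3 arrays, 1 from each group. In all 5 members had a value shared by arrays, and 26.4% of all genes did.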
